A study of Rattus norvegicus with 6 samples.

Results

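Genes of cholesterol and fatty acid synthesis were examined in neonatal rat ventricular cardiomyocytes, heart muscle cells taken from newborn rats and kept in culture. The set was given as 32 gene symbols, chosen by name for their roles in these pathways, with earlier results of these data known. All 32 were found among the 34510 genes of the deposited table. They form a sterol branch of 24 genes (18 enzymes, 5 genes that control the SREBP transcription factors and the sterol carrier gene Stard4) and a fatty acid branch of 8 enzymes. The set does not hold every enzyme of either route. Poly(A) RNA was sequenced in 3 libraries titled Bgal and 3 titled Trim28, all from these primary cells. The series' design text names an adenovirus that expresses TRIM28, a corepressor protein that works on chromatin. It states the question as how TRIM28 acts in ferroptosis, a form of cell death by iron-dependent oxidation of lipids. The sources used here do not say what the name Bgal stands for or which virus those cells received, nor the virus dose, the time after infection, the rat strain or the number of animals. Nothing in the labels says that libraries came from separate cultures, so each p-value measures the spread between these libraries, which may be technical.

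Cells build cholesterol from acetyl-CoA. The mevalonate steps lead to farnesyl diphosphate, and further enzymes turn that into squalene, lanosterol and at last cholesterol. Fatty acids start from the same acetyl-CoA and are then lengthened and desaturated. SREBP2, encoded by Srebf2, mainly drives the sterol genes and SREBP1, encoded by Srebf1, mainly the fatty acid genes. Both are held in the endoplasmic reticulum by SCAP and the INSIG proteins while sterols are plentiful, and are cut and sent to the nucleus when sterols fall short.

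Values are FPKM, fragments scaled by gene length and library total, so levels of different genes can be compared per length. Genes that reached 0.5 FPKM in 3 or more libraries were compared by limma on log2(FPKM + 1), with Benjamini-Hochberg adjustment over all 14808 tested genes and a threshold of 0.05 for the adjusted p. Reads on listed genes numbered from 26146166 to 34593292 per library. Each tested member had between 198 (Ebp) and 18149 (Fasn) reads in a library, and 31 of the 32 members were tested. Trim28 itself stood at 77.6 to 87.8 FPKM in the Bgal libraries and at 2923, 2890 and 980 FPKM in Trim28 replicates 1 to 3, the direction the titles give.

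Most of the tested members were lower in the Trim28 libraries. Of 31, 19 fell, 5 rose and 7 did not pass, which is 77.4% called, where 41.2% of all tested genes were called. Among all tested genes 21.1% fell and 20.1% rose. The members were chosen with earlier results of these data known, which limits this comparison. The median log2 difference of the members was -0.29 and that of all tested genes -0.02. All Trim28 libraries lay below all Bgal libraries for 21 members and above them for 7, while 53.8% of all tested genes had groups without overlap (27.7% lower and 26.0% higher in Trim28). In the sterol branch 13 of 24 genes fell and 5 rose, or 54.2% and 20.8%. The share that rose was near the 20.1% of all tested genes. In the fatty acid branch 6 of 7 tested genes fell and 0 rose, with 0 higher also at an unadjusted p under 0.05 and in limma-voom on recovered reads. Without Bgal replicate 1, 3 sterol genes rose in place of 5. Reads are from whole cultures, in which fewer cells of a type and less RNA per cell cannot be told apart.

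**Figure D1:**
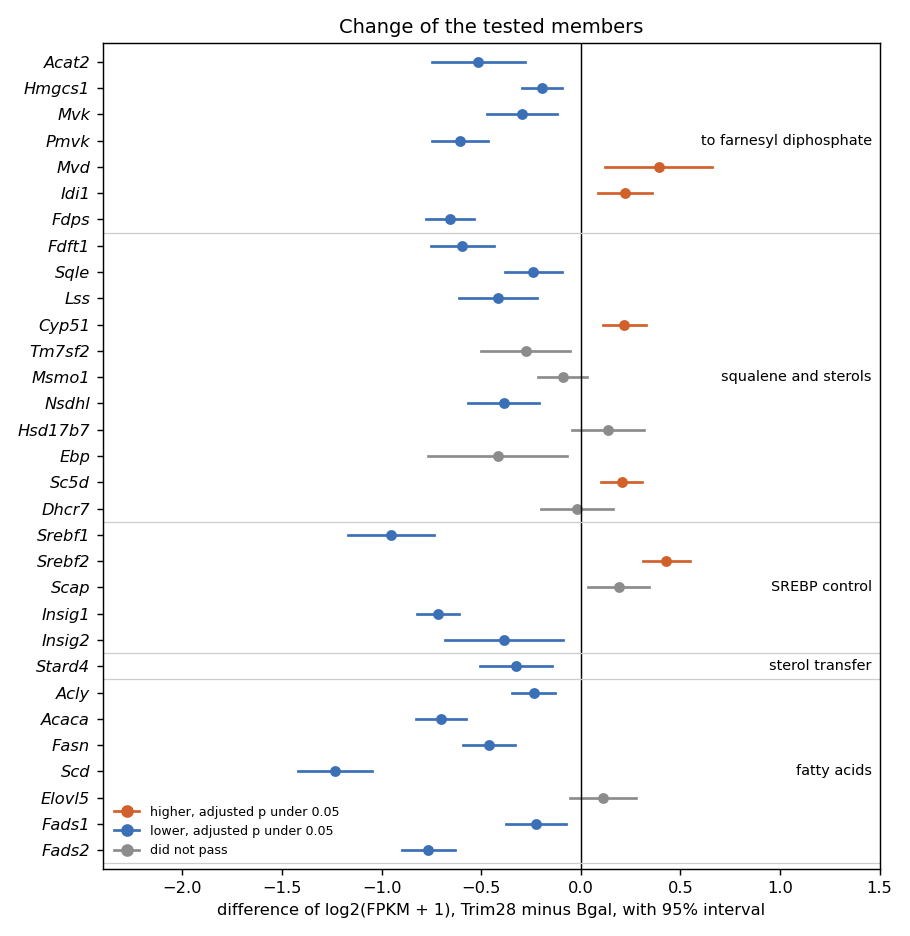
Difference of log2(FPKM + 1) between the Trim28 and Bgal libraries for the 31 tested members, with 95% confidence intervals from limma (n = 3 libraries per group). Points left of 0 are lower in Trim28. Scd and Srebf1 lie farthest to the left, at -1.23 and -0.95, and Srebf2 farthest to the right, at 0.43.

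The genes of the 2 SREBP factors moved in opposite directions. Srebf1 stood at 30.1, 28.4 and 23.4 FPKM in Bgal replicates 1 to 3 and at 13.2, 14.0 and 13.4 FPKM in the Trim28 replicates. The gene lies on chromosome 10, 46570996 to 46593009 on the minus strand, in the deposited coordinates, whose build the sources used here do not name. Every Trim28 value lay below every Bgal value. The mean fell 2.02-fold, from 27.3 ± 3.48 to 13.5 ± 0.441 FPKM (SD, n = 3 each), or -0.95 ± 0.09 as log2 change ± SE (limma adjusted p = 0.000313). Srebf2 had 36.2, 38.6 and 34.6 FPKM in the Bgal libraries and 49.0, 48.9 and 50.2 FPKM in the Trim28 libraries. All Trim28 values of Srebf2 (chromosome 7, 123381077 to 123438603, plus strand) were higher, and the mean rose 1.35-fold, from 36.5 ± 1.98 to 49.4 ± 0.693 FPKM (log2 change 0.43, SE 0.05, limma adjusted p = 0.000699). Scap, the escort that carries both SREBPs to the Golgi, had 14.6 to 16.7 FPKM in the Bgal and 17.2 to 18.6 FPKM in the Trim28 libraries, and did not pass (limma adjusted p = 0.0520, 95% confidence interval of the log2 difference 0.04 to 0.34). Without Bgal replicate 2 it passed, at 0.0258, as it did in limma-voom on recovered reads, at 0.0380.

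Both INSIG genes, whose proteins retain SCAP, fell. Insig1, itself a well-known SREBP target, had 86.9, 84.5 and 80.2 FPKM in the Bgal libraries and 51.6, 49.7 and 50.6 FPKM in the Trim28 libraries. The groups of Insig1 (chromosome 4, 342302 to 350515) were far apart beside their spread, and the mean fell 1.66-fold (83.9 ± 3.38 to 50.6 ± 0.927 FPKM, limma adjusted p = 7.96e-05). Insig2, the paralog, had 33.1, 26.0 and 25.3 FPKM against 19.2, 24.8 and 19.8 FPKM. Trim28 replicate 2 nearly reached the lowest Bgal library. The fall of Insig2 was 1.32-fold with a limma adjusted p of 0.0433, and it was lost without Bgal replicate 1 (0.113) or 2 (0.0592) and without Trim28 replicate 1 (0.125) or 3 (0.111). It was also lost with no filter on low values (0.0924) and without the intensity trend (0.0668). Stard4, which moves cholesterol between membranes, fell from 18.9 ± 1.85 to 14.8 ± 0.476 FPKM (limma adjusted p = 0.0125).

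Sequences upstream of gene starts were taken from RefSeq for the rat assembly GRCr8, in which 25 of the 32 symbols matched 26 windows, each running from 250 bases before a start to 50 after it. The windows of 6 genes that moved strongly or in opposite directions are shown here, as the 200 bases before the start, so that the letters near the starts of rising and falling genes can be compared. Capitals mark CCAAT, the box bound by the factor NF-Y, and CACGTG, an E-box, and TCACNCGAG, a variant of the sterol regulatory element, each on either strand. Srebf1 has 2 starts, 10154 bases apart.
Srebf1, upstream start, chr10:45529165-45529364, minus strand: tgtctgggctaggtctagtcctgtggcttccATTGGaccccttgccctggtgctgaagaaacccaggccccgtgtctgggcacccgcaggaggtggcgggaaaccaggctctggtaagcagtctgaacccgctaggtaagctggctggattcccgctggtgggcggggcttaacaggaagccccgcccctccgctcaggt
Srebf1, internal start, chr10:45519011-45519210, minus strand: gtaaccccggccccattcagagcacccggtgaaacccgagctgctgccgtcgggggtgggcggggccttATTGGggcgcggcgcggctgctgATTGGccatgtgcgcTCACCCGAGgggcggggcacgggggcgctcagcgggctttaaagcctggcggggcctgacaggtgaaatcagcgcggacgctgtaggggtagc
Srebf2, chr7:115543107-115543306, plus strand: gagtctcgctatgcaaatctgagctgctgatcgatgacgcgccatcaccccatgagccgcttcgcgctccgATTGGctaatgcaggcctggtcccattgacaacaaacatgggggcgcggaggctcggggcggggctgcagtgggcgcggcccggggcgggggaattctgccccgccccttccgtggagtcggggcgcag
Insig1, chr4:8057770-8057969, minus strand: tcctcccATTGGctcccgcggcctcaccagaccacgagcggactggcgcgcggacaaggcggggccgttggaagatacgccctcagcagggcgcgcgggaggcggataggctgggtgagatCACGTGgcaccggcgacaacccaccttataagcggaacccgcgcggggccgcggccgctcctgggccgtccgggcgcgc
Fdps, chr2:176804817-176805016, minus strand: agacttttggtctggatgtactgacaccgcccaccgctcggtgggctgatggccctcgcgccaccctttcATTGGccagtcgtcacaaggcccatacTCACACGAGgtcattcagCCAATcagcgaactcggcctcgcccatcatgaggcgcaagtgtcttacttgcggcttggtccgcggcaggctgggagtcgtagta
Idi1, chr17:66547525-66547724, minus strand: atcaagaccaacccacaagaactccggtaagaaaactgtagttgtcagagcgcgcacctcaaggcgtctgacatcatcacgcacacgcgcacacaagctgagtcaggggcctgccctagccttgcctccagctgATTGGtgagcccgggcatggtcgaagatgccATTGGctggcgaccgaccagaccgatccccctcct
Scd, chr1:253231732-253231931, minus strand: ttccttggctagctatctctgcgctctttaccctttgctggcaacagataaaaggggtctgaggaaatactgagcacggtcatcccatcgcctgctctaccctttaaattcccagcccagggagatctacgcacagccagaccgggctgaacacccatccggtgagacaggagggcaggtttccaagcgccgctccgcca

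CCAAT was found in 20 of the 26 member windows, or 76.9%, where 37.5% of all 33469 windows of the same length held it. By gene, it stood in 10 of 13 that fell, 4 of 5 that rose and 5 of 7 that did not pass. The SP1 box GGGCGG was present in 80.8% of member windows and 33.1% of all windows, and the E-box in 15.4% and 6.42%. TCACNCCAC, a sterol regulatory element spelling, was in 0 member windows and in 1.12% of all windows. The variant spelling, searched after the windows had been read, was found in the Fdps window, 103 bases before the start, and in the window of the internal Srebf1 start, 93 bases before it, and in 0.415% of all windows. In both windows a CCAAT box lies within the printed stretch, at 130 and 85 bases before the Fdps start and at 131 and 108 bases before the internal Srebf1 start. The Scd stretch holds none of the marked letters. These are matches of letters and not measured binding. The 33469 windows were not limited to genes tested here, so the shares do not set the members apart from expressed genes in general. Windows were matched by symbol, and Insig1 is on the plus strand in the deposited table and on the minus strand in GRCr8.

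Of the 7 enzymes that lead from acetyl-CoA to farnesyl diphosphate, 5 fell and 2 rose. These are 71.4% and 28.6%, beside 21.1% and 20.1% of all tested genes. Fdps, which makes farnesyl diphosphate and had the highest Bgal level of all members, stood at 138.6, 147 and 134 FPKM in the Bgal libraries. In the Trim28 libraries it had 87.4, 85.4 and 92.6 FPKM. The groups of Fdps (chromosome 2, 188392858 to 188413219, minus strand) did not overlap and the fall was 1.58-fold (limma adjusted p = 0.000151). Pmvk, phosphomevalonate kinase, had 34.2, 33.6 and 31.4 FPKM in Bgal and 22.3, 22.0 and 19.9 FPKM in Trim28, a fall of 1.55-fold (limma adjusted p = 0.000371). Acat2, the thiolase of the first step, went from 20.3, 23.0 and 23.2 FPKM to 13.3, 15.2 and 17.4 FPKM. The groups did not overlap, and the fall was 1.45-fold (limma adjusted p = 0.0056). Hmgcs1, which makes HMG-CoA, fell only 1.15-fold, from 129 ± 4.72 to 112 ± 2.43 FPKM (limma adjusted p = 0.00953), and Mvk, mevalonate kinase, 1.24-fold, from 18.7 ± 1.55 to 15.1 ± 0.831 FPKM (limma adjusted p = 0.0167). The call of Mvk was lost without Bgal replicate 1 (0.0603) or 2 (0.0501) or Trim28 replicate 2 (0.0567).

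The rising genes of this stretch encode consecutive enzymes, Mvd and Idi1, which make isopentenyl diphosphate and its isomer. Idi1 had 49.9, 48.0 and 51.9 FPKM in the Bgal libraries and 57.6, 55.2 and 62.7 FPKM in the Trim28 libraries. Those values did not overlap, and the rise was 1.17-fold (limma adjusted p = 0.0193, but 0.0549 without Bgal replicate 1 and 0.0566 without Bgal replicate 2). Mvd went from 18.7, 22.1 and 16.5 FPKM to 22.8, 28.3 and 24.7 FPKM, a rise of 1.32-fold. Bgal replicate 2 and Trim28 replicate 1 lay close together. The limma adjusted p of Mvd was 0.0298, and it did not pass without Bgal replicate 1 (0.0794) or 3 (0.0807), without Trim28 replicate 2 (0.0911) or 3 (0.0599), or with no filter on low values (0.0665).

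**Figure D2:**
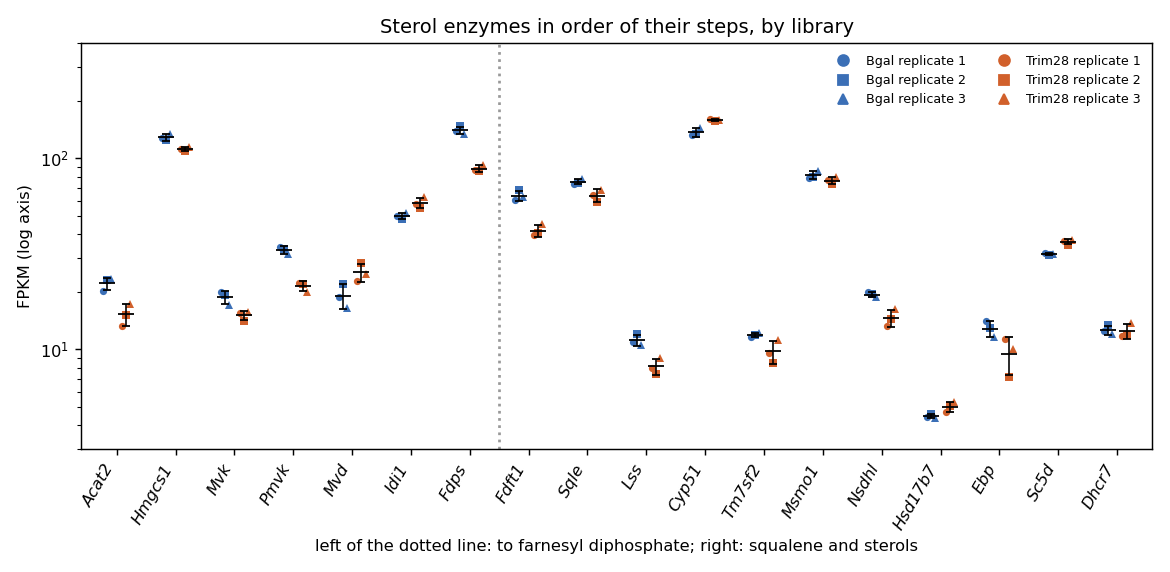
FPKM of the 18 sterol enzymes in each of the 6 libraries, on a log axis, in order of their steps. Black bars give the mean and SD of 3 libraries per group. The falling Fdps and Fdft1 stand between the rising Idi1 and Cyp51, and the falling Pmvk stands before the rising Mvd.

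From farnesyl diphosphate onward, 4 of 11 enzymes fell, 2 rose and 5 did not pass. That is 36.4% lower and 18.2% higher, beside 21.1% and 20.1% of all tested genes, so the share that rose was near that of all genes. Fdft1, squalene synthase and the first step given over to sterols, had 60.2, 68.2 and 62.7 FPKM in the Bgal libraries and 39.8, 40.5 and 45.3 FPKM in the Trim28 libraries. The fall was 1.52-fold with no overlap (limma adjusted p = 0.000608). Lss, which closes the sterol rings, fell 1.37-fold, from 11.2 ± 0.731 to 8.13 ± 0.787 FPKM (limma adjusted p = 0.00682). Nsdhl, a dehydrogenase that helps remove methyl groups from the sterol ring, fell 1.33-fold, from 19.4 ± 0.568 to 14.6 ± 1.49 FPKM (limma adjusted p = 0.00597). Sqle, squalene epoxidase, fell 1.18-fold, from 75.4 ± 2.25 to 63.9 ± 4.89 FPKM (limma adjusted p = 0.0179), a call lost without Bgal replicate 3 (0.0544) or Trim28 replicate 1 (0.0502).

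The late enzymes that rose were Cyp51 and Sc5d. Cyp51, which takes a methyl group off lanosterol, had 132, 134 and 145 FPKM in Bgal and 161, 158 and 159 FPKM in Trim28, and was the highest member in the Trim28 group. Sc5d, a sterol desaturase near the end of the route, had 31.8, 31.1 and 31.7 FPKM in Bgal and 36.9, 35.3 and 37.4 FPKM in Trim28. Both rose 1.16-fold, with a limma adjusted p of 0.0084 each. The groups of Cyp51 and of Sc5d did not overlap.

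The remaining 5 enzymes of this stretch did not pass. Dhcr7, which reduces the last double bond, stood at 12.6 ± 0.678 and 12.5 ± 1.13 FPKM, with a 95% confidence interval of the log2 difference from -0.20 to 0.16. Msmo1, the methylsterol oxidase, stood at 81.6 ± 4.04 and 76.5 ± 3.21 FPKM, with overlapping libraries and an interval from -0.21 to 0.03. Hsd17b7, a sterol ketone reductase, stood at 4.45 ± 0.108 and 5.00 ± 0.307 FPKM and was higher in every Trim28 library without passing. Its interval ran from -0.04 to 0.32. These intervals leave room for modest changes. Tm7sf2, a sterol reductase, and Ebp, a sterol isomerase, were lower in every Trim28 library without passing (limma adjusted p = 0.0524 and 0.0588). Tm7sf2 passed without Trim28 replicate 3 (0.0110), and Ebp without Trim28 replicate 1 (0.0289). Both passed in limma-voom on recovered reads (0.0276 and 0.0339).

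In the fatty acid branch the desaturase Scd, which puts the first double bond into saturated fatty acids, fell most. It had 35.1, 36.0 and 30.0 FPKM in Bgal replicates 1 to 3, against 13.9, 13.0 and 14.3 FPKM in the Trim28 libraries. The groups of Scd (chromosome 1, 264160129 to 264172729, minus strand) lay far apart, and the mean fell 2.46-fold (log2 change -1.23, SE 0.08, limma adjusted p = 8.32e-05). Its paralog Scd2, listed among the partner genes and not a member, was more abundant and fell further, from 587, 567 and 510.5 FPKM to 184, 192 and 198 FPKM. That is a 2.90-fold fall (log2 change -1.53, SE 0.06). The sources used here do not say how reads that fit both Scd and Scd2 were counted, so the split between them is uncertain.

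Fads2, which starts the desaturation of polyunsaturated fatty acids, had 99.9, 107 and 93.1 FPKM in Bgal and 57.4, 58.0 and 59.8 FPKM in Trim28. Fads1 and Fads2 are neighbours on chromosome 1, at 226234074 to 226249138 and 226114413 to 226152524, on opposite strands. The fall of Fads2 was 1.71-fold (limma adjusted p = 0.000129). Fads1, which acts later on the same fatty acids, fell 1.17-fold, from 45.4, 42.9 and 43.6 FPKM to 40.9, 34.7 and 36.9 FPKM (limma adjusted p = 0.0266). Trim28 replicate 1 came close to the Bgal libraries. The call of Fads1 was lost without Bgal replicate 1 (0.0857) or 3 (0.0583), without Trim28 replicate 2 (0.0788) or 3 (0.0653), and without the intensity trend (0.0535).

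Acly, Acaca and Fasn, which act in the making of the saturated chain, fell. Acaca, acetyl-CoA carboxylase, which commits acetyl-CoA to fatty acids, had 17.5, 17.8 and 17.0 FPKM in Bgal and 10.1, 10.2 and 10.7 FPKM in Trim28. The libraries of each group were nearly equal, and the fall was 1.69-fold (limma adjusted p = 0.000141). Fasn, fatty acid synthase, fell 1.39-fold, from 55.8, 57.4 and 51.0 FPKM to 38.6, 38.8 and 40.9 FPKM (limma adjusted p = 0.000778). Acly, which makes cytosolic acetyl-CoA from citrate and so feeds both branches, fell 1.18-fold, from 38.6 ± 0.933 to 32.6 ± 1.17 FPKM (limma adjusted p = 0.00602).

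Neither elongase was called. Elovl5, which lengthens polyunsaturated chains, stood at 66.5 ± 5.48 and 71.8 ± 3.91 FPKM with overlapping libraries and a 95% confidence interval of the log2 difference from -0.05 to 0.28. Elovl6, which lengthens saturated chains, had 2 to 13 reads per library (0.0523 to 0.446 FPKM) and was not tested.

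**Figure D3:**
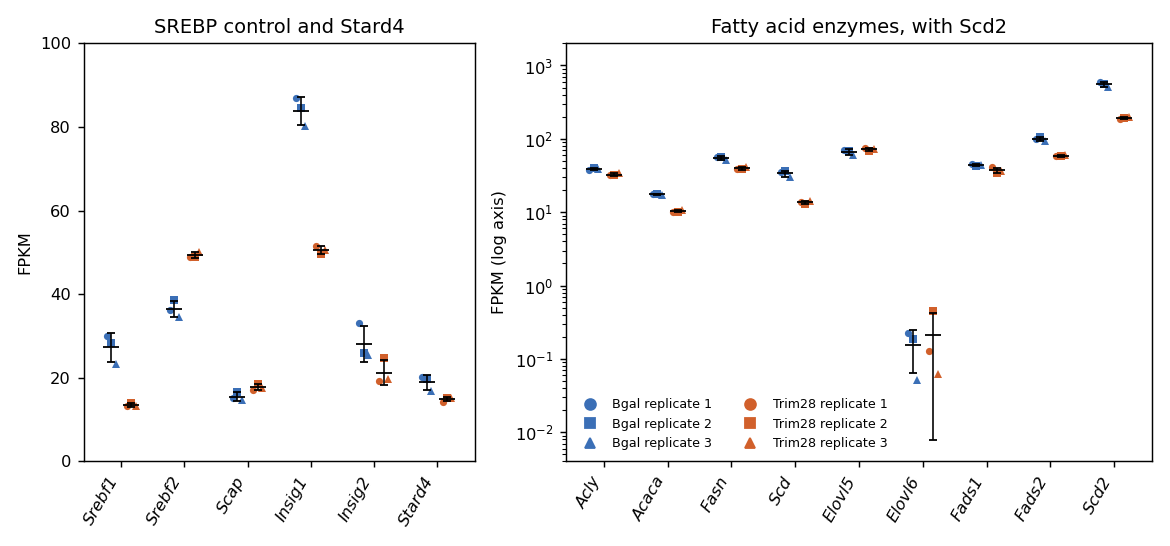
FPKM by library of the SREBP control genes and Stard4 (left, linear axis) and of the 8 fatty acid enzymes with Scd2 added (right, log axis). Black bars give the mean and SD of 3 libraries per group. Srebf1 lies below Srebf2 in every library, with a wider gap in the Trim28 libraries, and Scd2 stands at 184 to 198 FPKM there against 510.5 to 587 FPKM in Bgal.

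Members overlapped on the genome with other entries of the table in 7 cases, where shared reads could have been counted for either, since the sources used here give no strand setting. Srebf1 shares 588 bases with Rai1 on the other strand, and Rai1 stood at 10.4 FPKM in both groups. Fdps shares 107 bases with RF00026 on the same strand, and RF00026 stood at 10.4 FPKM in Bgal and 4.97 FPKM in Trim28. Hsd17b7 shares 19943 bases with LOC100366054 on the other strand, which stood at 0.126 and 0.0852 FPKM. Tm7sf2 shares 1066 bases with Vps51 on the same strand. Idi1 shares 100 bases with Wdr37 on the other strand.

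Ratios of paired members within a library do not depend on the library's total. For 6 pairs the log2 ratio was compared by a two-sided exact permutation test over libraries, for which 0.1 is the smallest p that 3 against 3 allows, so no pair could pass 0.05. The ratio of Srebf1 to Srebf2 was 0.831, 0.736 and 0.676 in Bgal replicates 1 to 3, against 0.270, 0.287 and 0.266 in the Trim28 replicates (exact p = 0.1, adjusted over the 6 pairs 0.15). Scd relative to Fasn went from 0.615 ± 0.0235 to 0.348 ± 0.0119, and Acat2 relative to Hmgcs1 from 0.172 ± 0.0133 to 0.136 ± 0.0170. Fads1 relative to Fads2 went up, from 0.441 ± 0.0368 to 0.642 ± 0.0607. These 4 ratios did not overlap between the groups and each had an exact p of 0.1. The ratio of Insig1 to Insig2 overlapped, at 2.63 to 3.25 and 2.01 to 2.68 (exact p = 0.2). Elovl6 to Elovl5, resting on few Elovl6 reads, had an exact p of 1.

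**Figure D4:**
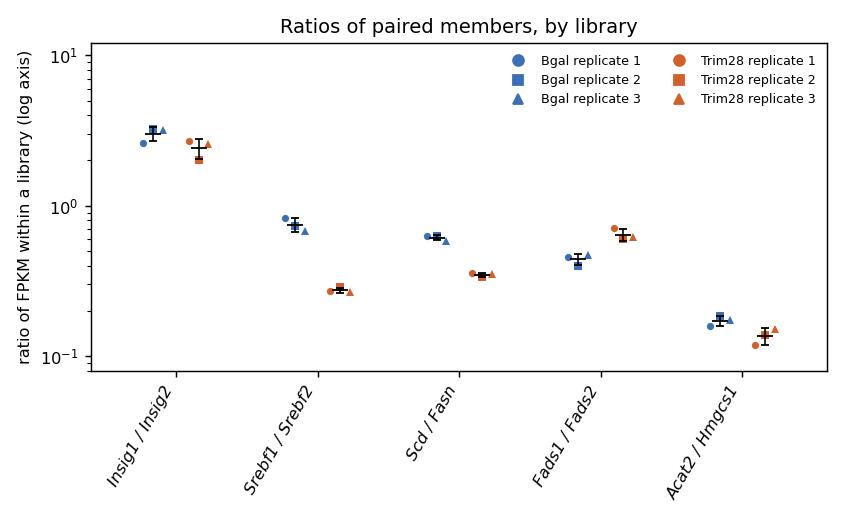
Ratio of FPKM of paired members within each library, on a log axis, for 5 of the 6 pairs (Elovl6 to Elovl5 is left out for its few reads). Black bars give the mean and SD of 3 libraries per group. Srebf1 to Srebf2 moves most, from 0.748 to 0.274 on average.

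Further genes of lipid metabolism, in 5 lists, changed in both directions. Of 78 tested, 19 rose and 21 fell, which is 51.3% called beside 41.2% of all tested genes, with a median log2 difference of 0.01. By direction 24.4% rose and 26.9% fell, near the 20.1% and 21.1% of all tested genes. Without Bgal replicate 1, 12 rose. Among 17 genes that process or degrade SREBPs and their partners 4 rose and 2 fell, or 35.3% called, below the 41.2% of all tested genes. Mbtps1, the protease that makes the first cut in SREBPs, fell 1.16-fold (32.8 ± 0.911 to 28.3 ± 0.879 FPKM, limma adjusted p = 0.0107). Fbxw7, a ubiquitin ligase subunit that marks nuclear SREBPs for decay, rose 1.49-fold, and Sar1a, of the vesicle coat that carries SCAP, rose 1.18-fold. Rnf139, a ubiquitin ligase of the endoplasmic reticulum, fell 1.17-fold, a call lost without Bgal replicate 3 (limma adjusted p = 0.0710) or Trim28 replicate 1 (0.0805). Among 10 genes of the other mevalonate products 2 rose and 2 fell, a share called of 40% that is near the 41.2% of all tested genes. Dhdds, which makes dolichol precursors, fell 1.66-fold, from 22.1 ± 1.18 to 13.3 ± 1.27 FPKM (limma adjusted p = 0.000606). Pdss1, of ubiquinone synthesis, and Icmt, which methylates prenylated proteins, rose 1.19-fold and 1.21-fold, and Nus1, the partner of Dhdds, fell 1.13-fold. Without Bgal replicate 1 these calls were lost, at limma adjusted p = 0.0891, 0.0659 and 0.0984. That of Pdss1 was also lost without Bgal replicate 2 (0.0582) or Trim28 replicate 1 (0.0747), 2 (0.0582) or 3 (0.0707), and that of Icmt without Bgal replicate 2 (0.0866) or Trim28 replicate 1 (0.0596) or 3 (0.0657). That of Nus1 was also lost without Bgal replicate 3 (0.106) or Trim28 replicate 1 (0.0862), 2 (0.119) or 3 (0.0543).

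Sterol uptake, efflux and storage genes numbered 19, of which 3 rose and 5 fell. At 42.1% called, this list too was near the 41.2% of all tested genes. Abcg1, a sterol exporter, fell from 27.6, 26.8 and 21.9 FPKM to 11.6, 12.4 and 10.8 FPKM, and Cyp27a1, which oxidises cholesterol in mitochondria, fell 1.75-fold. Lrp1, a lipoprotein receptor, rose 1.90-fold and Lipa, the lysosomal lipase that frees cholesterol from its esters, 1.46-fold. Among 20 tested partners of fatty acid synthesis 7 rose and 7 fell, or 70.0% called beside 41.2% of all tested genes. Beside Scd2, Mid1ip1, a protein that activates acetyl-CoA carboxylase, fell 1.43-fold. Hacd2, a dehydratase of chain elongation, rose 1.84-fold and Fads3, a relative of the Fads members, 1.47-fold. Of 12 tested genes of glycerolipid synthesis and lipid droplets 3 rose and 5 fell, or 66.7% called beside 41.2% of all tested genes. By direction 25.0% rose and 41.7% fell, beside 20.1% and 21.1% of all tested genes. Lpin1 fell 2.14-fold, Agpat2 1.80-fold and Plin4 from 2.47 ± 0.191 to 0.613 ± 0.161 FPKM, while Agpat3 rose 1.59-fold. Lpin1 and both Agpat genes encode enzymes of triglyceride and phospholipid assembly, and Plin4 a coat protein of lipid droplets.

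Markers of other cell types moved in the same libraries. The summed level of 10 fibroblast markers was 548 to 571 FPKM in the Bgal and 1009.9 to 1076 FPKM in the Trim28 libraries, and 8 of them rose, among them Pdgfra 2.76-fold and Mmp2 2.08-fold. For 8 mural markers the sums were 761 to 1017 and 1620 to 1718 FPKM, and 7 rose, among them Acta2 1.94-fold and Pdgfrb 2.00-fold. For 9 leukocyte markers they were 27.7 to 28.01 and 66.0 to 67.5 FPKM, and all 7 that were tested rose, with Lyz2 up 2.55-fold and Cd14 2.45-fold. By list, 80%, 87.5% and 100% of the tested markers rose, beside 20.1% of all tested genes. In these 3 lists 0 markers fell in limma, also at an unadjusted p under 0.05 and in limma-voom. The 7 endothelial markers summed to 12.7 to 13.3 and 11.6 to 12.9 FPKM, and of the 3 tested Tek rose 1.73-fold and Kdr fell 1.33-fold. The 9 cardiomyocyte markers summed to 16062 to 17022 and 15708 to 17006 FPKM, so both groups carried the markers of the labelled cell type. By gene 2 were higher and 5 lower, or 22.2% and 55.6%, beside 20.1% and 21.1% of all tested genes. Myl2, the ventricular myosin light chain, fell from 1008 ± 219 to 362 ± 3.59 FPKM, and Myl7, the atrial one, from 41.1 ± 2.83 to 17.9 ± 1.95 FPKM. The cardiomyocyte markers that rose were Actn2, 1.34-fold, and Nppa, 1.47-fold (limma adjusted p = 0.000458 and 0.00711), named after their values were seen. Nppa did not pass with no filter on low values (limma adjusted p = 0.0574). It is a large part of the sums, at 4335 ± 496 FPKM in Bgal and 6368 ± 687 FPKM in Trim28. The overlap of the sums therefore does not show a level cardiomyocyte content. Tnnt2, Tnni3 and Pln, also named after their values were seen, fell 1.19-fold, 1.65-fold and 1.43-fold, and Myh6 and Ryr2 did not pass. The 6 adipocyte markers were near 0, with sums of at most 0.117 FPKM, and no marker was at 0 in every library. The part of the other cell types in the changes of the lipid genes was not tested.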

How the data were processed

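Poly(A) RNA of 3 Bgal and 3 Trim28 libraries was measured, with groups and replicate numbers taken from the titles. The library chemistry marked the strand with dUTP, per the labels' protocols. The authors deposited FPKM values per the file headers, 1 column per library with no pooling, and gene lengths in bases in another column. Per the submitters' processing notes the authors used HISAT2 2.0.5 and DESeq2, while the sources used here name no counter, strand setting, genome build or annotation. The table held 0 columns of other samples. Because FPKM divides by the library total, a strongly expressed gene lowers all others.

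The members and lists were chosen with earlier results of these data known. Genes with at least 0.5 FPKM in 3 libraries were tested with limma 3.58.1 in R 4.3.3 on log2(FPKM + 1) with an intensity trend, two-sided. The fold on that log2 scale understates changes of low genes, while folds named as such are ratios of mean FPKM. FPKM times gene length gave whole reads (within 0.01) for 100% of values, and these reads entered limma-voom only. The limma step was tested on simulated reads. Depth and the number of libraries limit the precision, and intervals cover the spread between libraries. All members were named, with Trim28 and up to 4 genes of each further lipid list and 2 of each cell type list with the smallest p-values. Promoter windows came from RefSeq, with matches on both strands.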

Additional observations from a re-analysis of the deposited data

How the results depend on the processing

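The counts of called members were recomputed under 13 alternatives: another pseudocount, no filter, a stricter filter, another scaling, limma-voom on recovered reads, no intensity trend, a replicate block, and leaving out each library. Of 31 tested members, 21 kept their direction and their side of the threshold under all 13, among them Srebf1, Srebf2, Insig1, Scd, Fads2, Fdps and Fdft1. The number of sterol members that rose was 3 to 5 when single libraries were left out, and the number of genes of the further lists that rose was 12 to 16, the lowest in both cases without Bgal replicate 1. Members that fell numbered 11 to 13 in the sterol branch and 5 to 6 in the fatty acid branch in those settings. Dhcr7 did not pass and had log2 differences of -0.087 to 0.021 when single libraries were left out, with its sign turned at 0.018 without Bgal replicate 2, 0.021 without Trim28 replicate 1 and 0.0084 without Trim28 replicate 2. The labels do not say that numbers pair libraries, so numbers were not treated as pairs. Deviations of libraries with the same number had correlations of -0.016, 0.13 and 0.0091 over tested genes. For unlike numbers the correlations ran from -0.090 to 0.084. With the replicate block 6 sterol members rose and 13 fell, and 0 fatty acid members rose and 6 fell. The block changed the calls of Insig2 (limma adjusted p = 0.0650), Scap (0.0455) and Ebp (0.0452) and of no other member. Rescaling by the median of ratios changed no member's call. With low read numbers, Elovl6 could not be compared at this depth.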

Other observations

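The 3 Trim28 libraries differed in the level of Trim28 itself, which was 2923, 2890 and 980 FPKM. Among the 19 members that fell, the Trim28 library nearest to the Bgal mean was replicate 3 for 13 genes, replicate 1 for 3 and replicate 2 for 3. Among the 5 members that rose, replicate 3 was the nearest for 0 genes, replicate 2 for 4 and replicate 1 for 1. These are counts over genes of the same 3 libraries and carry no test. The same counts over all called genes were not made, so the pattern may not be particular to the members. A relation to the level of Trim28 was not tested.

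Summed over the enzymes of each branch, the FPKM values were as follows. The 18 sterol enzymes summed to 860 to 881 FPKM in the Bgal and 749.8 to 803 FPKM in the Trim28 libraries. The 8 fatty acid enzymes summed to 334 to 369 and 254 to 269.8 FPKM. Neither sum overlapped between the groups. Abundant genes weigh most in such sums. Among the sterol enzymes the mean of Fdps went from 140 to 88.5 FPKM, while that of Cyp51 went from 137 to 159 FPKM. Over tested members the coefficient of variation within a group had a median of 5.37% in Bgal and 5.45% in Trim28, and was highest for Insig2 in Bgal (15.2%) and for Ebp in Trim28 (22.3%).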
